A study of Caenorhabditis elegans with 2 samples.

Results

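Distal intronic peaks on autosomes are candidate binding intervals of the tagged worm transcription factor SPR-3 that lie inside introns, away from annotated gene starts. The list they come from holds peaks together with background intervals, so not every one is a bound site. They were selected on the pooled signal, a value that the authors deposited for each interval and that is taken here as immunoprecipitate over control, although its scaling is not given: a region had to be among the 5000 intervals of highest pooled signal and to lie on an autosome. Its summit, the base that the file marks as the peak of the interval, had to be in an intron of a protein-coding gene and outside every exon. It also had to lie outside all promoter windows, which ran from 1000 bp upstream to 200 bp downstream of the 5′ end of each protein-coding gene, and not within 200 bp of a tRNA, snRNA or snoRNA gene. The rule gave 830 of the 5000 intervals, or of the 4133 on autosomes. Signal and rank chose these regions and are given below as description, with no test. The chromatin immunoprecipitation and sequencing (ChIP-seq) was done with an anti-GFP antibody on whole L4 larvae of mixed sex at 49 hours, after starvation at L1 had synchronised the bleached cultures. All animals were of strain OP703, which has the tm4063 allele of unc-119 and the transgene wgIs703. That transgene joins spr-3 to TY1, EGFP and 3xFLAG tags and also holds unc-119(+), so the protein measured is a C-terminal fusion made from a transgene in rescued unc-119 mutants. The group had 2 biological replicates, there was no other condition, and both replicates were set against the same control. Whole larvae were pooled, so signal cannot be assigned to a tissue, and the deposited lists hold no reads or read counts, so the depth behind each value is unknown.

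SPR-3 is a protein with C2H2 zinc fingers, a class of domain that often binds DNA. Mutations in spr-3 were found as suppressors of the egg-laying defect of worms that lack the presenilin gene sel-12, and other suppressors of that defect encode homologues of the mammalian CoREST and LSD1 corepressor proteins. Introns of worm genes are short as a rule, are rich in A and T, and can hold enhancers and the promoters of shorter transcripts of the same gene.

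Windows on the plus strand of ce11 that reach 50 bases to each side of a summit show the sequence at the members that the results turn on. They were read from the RefSeq genome of that build. The first set gives 3 of the highest members by pooled signal, at mdt-26 (chrII:5661772-5661872), gei-4 (chrIII:349881-349981) and pqn-41 (chrIII:1925293-1925393), with GAGAGA, the 6-base word with the lowest p in the comparison of summits with flanks, in capitals. The windows at mdt-26 and gei-4 each hold it, and the window at pqn-41 has no GAGAGA and holds runs of alternating T and G and of alternating C and A. Those at scc-2, lips-10 and F13D12.3, which are also among the highest members, hold no GAGAGA and are not printed.
mdt-26: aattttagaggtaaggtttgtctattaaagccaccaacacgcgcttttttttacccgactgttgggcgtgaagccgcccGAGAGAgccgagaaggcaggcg
gei-4: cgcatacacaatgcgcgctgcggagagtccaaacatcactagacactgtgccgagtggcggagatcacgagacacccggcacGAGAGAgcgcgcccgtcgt
pqn-41: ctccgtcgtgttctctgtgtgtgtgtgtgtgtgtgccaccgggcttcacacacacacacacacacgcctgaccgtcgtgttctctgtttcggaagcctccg
The second set gives the 4 members of highest signal that held the word GAGACGCA, whose reverse complement is TGCGTCTC, at epg-9 (chrIV:2602119-2602219), F57A8.1 (chrV:10042440-10042540), Y43F8B.2 (chrV:19522875-19522975) and jun-1 (chrII:9113931-9114031). The word is in capitals on whichever strand it was found, and the epg-9 window holds 2 copies.
epg-9: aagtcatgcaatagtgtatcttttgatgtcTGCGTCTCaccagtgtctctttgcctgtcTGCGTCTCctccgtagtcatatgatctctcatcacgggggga
F57A8.1: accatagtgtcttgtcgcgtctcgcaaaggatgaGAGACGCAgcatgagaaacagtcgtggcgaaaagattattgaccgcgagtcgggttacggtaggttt
Y43F8B.2: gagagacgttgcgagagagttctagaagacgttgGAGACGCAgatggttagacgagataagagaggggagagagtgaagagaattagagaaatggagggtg
jun-1: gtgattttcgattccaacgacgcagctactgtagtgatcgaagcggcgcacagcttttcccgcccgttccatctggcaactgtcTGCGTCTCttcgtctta
The third set gives members with the repeat AGAGAGAG (CTCTCTCT on the other strand), in capitals, at lin-42 (chrII:1238090-1238190) and daf-5 (chrII:14040390-14040490), and the last gives the member at F13A7.1 (chrV:16377237-16377337), where the word GCGCCAGC and its reverse complement GCTGGCGC overlap.
lin-42: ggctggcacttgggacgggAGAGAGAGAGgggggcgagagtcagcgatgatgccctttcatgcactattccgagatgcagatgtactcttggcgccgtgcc
daf-5: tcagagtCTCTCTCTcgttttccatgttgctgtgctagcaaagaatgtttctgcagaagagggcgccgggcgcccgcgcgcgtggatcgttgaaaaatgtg
F13A7.1: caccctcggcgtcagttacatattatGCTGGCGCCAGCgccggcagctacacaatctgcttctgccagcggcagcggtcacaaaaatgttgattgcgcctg

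Most of these peaks were low, and a few stood far above the rest. The pooled signal of the 830 members ran from 84.3 to 600.6 with a median of 97.3 (interquartile range 89.7 to 112.3). In the same 5000 intervals the median was 100.4 for distal intergenic, 108.4 for promoter and 97.2 for exonic peaks on autosomes, and 149.5 for peaks near small RNA genes. Of the 830, 87 belonged to the authors' thresholded set, whose peaks are also those at the top of the pooled list by signal, and 743 ranked below that set. The thresholded set was made by an irreproducible discovery rate (IDR) procedure, which keeps intervals that rank high and reproducibly across lists. The deposited −log10 q-values of the members ran from 0.401 to 3.1, and 131 members had a q-value under 0.05. The same share of the other intervals is not given here, so this count describes the members alone. Just inside the limit of rank 5000 stood peaks in W06A7.4 (signal 84.4), ZK39.10 and C16A11.3 (84.3 each), and just outside it intervals in lit-1, ikke-1 and vab-23 (84.3, 84.3 and 84.2), so the limit cut through a continuous range.

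The highest member lay in intron 5 of ints-8, which encodes a subunit of the Integrator complex that processes small nuclear RNAs (WBGene00013021; chromosome I, 13463800 to 13464100). Its pooled signal was 600.6, and it had a signal of 283.0 in replicate 1 (rank 34 of 30000 candidates) and of 316.7 in replicate 2 (rank 14). The next lay in intron 6 of ppfr-1 (WBGene00008878; chromosome I, 9382881 to 9383072), a gene for a regulatory subunit of a protein phosphatase, with a pooled signal of 577.6, ranks 28 and 21 in the replicates, and a summit inside the annotated antisense RNA anr-20 and the noncoding RNA F16A11.7. The central 31 bases of that summit occur 1297 times in the genome, counting both strands, so reads there may not be assigned to this place alone. A second ppfr-1 peak, whose interval overlaps the first, had a signal of 379.4 and shared its matched candidate in replicate 2 with the first.

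The other members among the 12 highest lay in genes of several functions. The peak in mdt-26, which encodes a subunit of the Mediator complex (chromosome II, 5661586 to 5661977), had a pooled signal of 433.7 and ranks 76 and 41 in replicates 1 and 2. The one in Y106G6D.8 (chromosome I, 10117566 to 10117746) had 426.1, with ranks 49 and 72. The peak in intron 1 of scc-2, the gene for a cohesin loader (chromosome II, 255159 to 255588), had 315.5, with ranks 140 and 137, and lay in the start window of an internal transcript of that gene. The peaks in gei-4 (chromosome III, 349716 to 350145; 301.0), T28F4.1 (chromosome I, 7475027 to 7475456; 294.4) and lips-10 (chromosome II, 8441510 to 8441939; 269.0) followed, and each ranked within the 310 highest candidates of both replicates. The last of the 12 were in pqn-41, whose product is rich in glutamine (chromosome III, 1925128 to 1925557; 259.9), F13D12.3 (chromosome II, 11720981 to 11721092; 246.1) and epg-9, an autophagy gene (chromosome IV, 2602052 to 2602216; 239.6). The epg-9 peak differed most in rank between libraries, with rank 500 in replicate 1 and rank 143 in replicate 2.

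Introns held a smaller share of the strongest intervals than of the weaker ones. Of the autosomal intervals in the thresholded set, 11.5% met the position rule for distal introns, against 18.8% of those ranked below it down to 2000, 24.9% of ranks past 4000 down to 5000 and 27.02% of ranks past 20000 down to 30000. Sequence that meets the same rule made up 30.6% of the autosomes, 25247033 of 82553665 bp, so the share of introns lay below that of the sequence at all ranks examined. The promoter share ran the other way, with 42.7% of the thresholded set, 20.5% of ranks past 4000 down to 5000 and 22.2% of the sequence. These shares follow from signal and annotation together and were not tested.

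**Figure D1:**
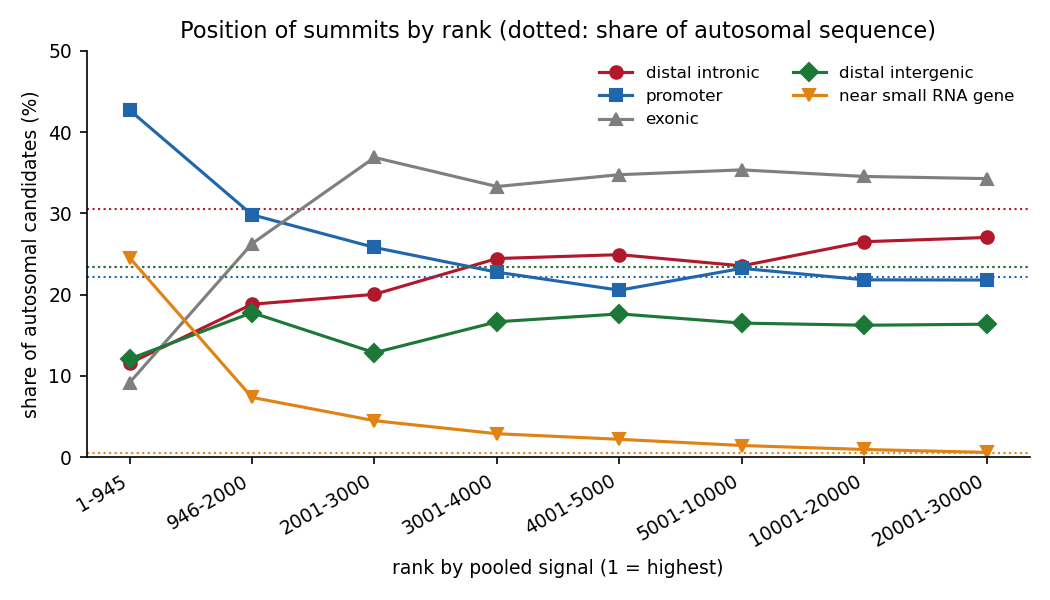
Share of autosomal candidates (%) in each position class by bins of pooled signal rank, highest ranks on the left, with the share of autosomal sequence in each class as a dotted line of the same colour. The leftmost bin is the thresholded set, of which distal introns held 11.5%; they held 27.02% of the rightmost bin, and lay below their 30.6% of the sequence in each bin.

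Below the thresholded set, most of these peaks were not among the highest candidates of both replicates. Of the 830 members, 271 (32.7%, exact 95% binomial interval 29.5 to 35.96%) were overlapped by one of the 5000 highest candidates of replicate 1 and also by one of replicate 2. The candidates of replicate 1 overlapped 61.3% of the members and those of replicate 2 overlapped 61.7%, and 80 members (9.64%) were overlapped by neither. The share in both was 86 of 87 among members in the thresholded set, where agreement between the replicates is part of how the set was made, and 185 of 743 (24.9%, 21.8 to 28.2%) among those below it. In that lower range it was 29.2% of distal intergenic and 34.8% of promoter peaks. When all 30000 candidates of each replicate were counted, 789 members (95.1%) were overlapped in both. With the rule applied to each replicate by itself, replicate 1 gave 837 distal intronic peaks, of which 244 (29.2%) overlapped those of replicate 2, and replicate 2 gave 840, of which 240 (28.6%) overlapped those of replicate 1. The corresponding shares were 38.94% and 38.95% for distal intergenic peaks and 54.5% and 49.8% for promoter peaks. The pooled list was made from both replicates and all lists share 1 control, so these shares describe a selected set and were not tested.

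**Figure D2:**
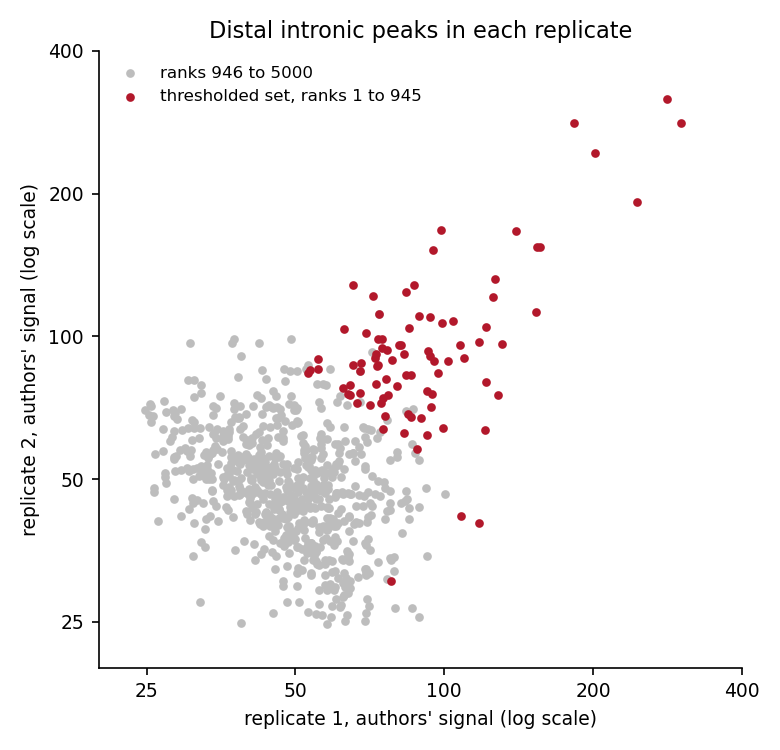
Signal of the matched candidate in replicate 1 (x) and replicate 2 (y), both on log scales in the authors' units, for the 789 members matched in both lists. The points of the thresholded set (red) lie mostly above and to the right of those below it (grey); all were selected on the pooled signal, and the levels of the 2 lists are not on a known common scale.

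Within genes, first introns and internal transcript starts held a larger share of the peaks than of the sequence open to them; position was part of the rule, so this was not tested. First introns held 244 of the 830 members (29.4%, 26.3 to 32.6%), against 22.3% of the eligible sequence. The rule used 1 annotated start per gene, and 162 members (19.5%, 16.9 to 22.4%) lay in a window of the same kind around another annotated transcript start, against 10.9% of the eligible sequence. Both shares were larger in members of the thresholded set, at 37.9% (27.7 to 48.97%) and 27.6% (18.5 to 38.2%), than in members below it, at 28.4% and 18.6%. The median member lay 2870 bp downstream of its host's 5′ end (204 to 40160 bp) in an intron of 1260 bp. Of the 830, 189 lay within 1000 bp of that end, 280 lay more than 5000 bp from it, and 28 lay no more than 300 bp from it, next to the edge of the promoter window.

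Along the genome the members were spread like their eligible sequence, with some unevenness between chromosomes. The central 50% of chromosome length held 42.3% of the members and 42.6% of the eligible sequence. Chromosome II held 177 members (21.3%, 18.6 to 24.3%) on 16.8% of the eligible sequence, and chromosome IV held 137 (16.5%, 14.04 to 19.2%) on 20.8%. Summits inside annotated noncoding RNAs were few, but above the share of the sequence for ncRNA and antisense RNA genes. Genes of the class ncRNA held 28 (3.37%, 2.25 to 4.84%) on 0.902% of the eligible sequence. Antisense RNA genes held 6 (0.723%, 0.266 to 1.57%) on 0.130%. These shares were not tested. No summit lay in a miRNA or piRNA gene; these take 0.0234% and 0.324% of the eligible sequence, below the 0.443% that a count of 0 allows (upper bound of the exact 95% interval), so no difference from the sequence was detectable. The central 31 bases of the summit were repeated elsewhere in the genome in 24 members (2.89%), against 32 of 639 distal intergenic peaks (5.01%).

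The members lay in 644 genes, counting for each peak the gene with the nearest 5′ end, of 15045 autosomal protein-coding genes with eligible intron sequence (4.28%). Of these, 538 genes held 1 member, 57 held 2, 29 held 3 and 20 held 4 or more. Genes with more intron sequence more often held a member: 135 of the 394 genes with over 10000 bp of eligible sequence held a member (34.3%), against 46 of the 6067 genes with 500 bp or less (0.758%). Counted per Mb, the long-intron genes held 37.3 members and the short-intron genes 34.7, beside 32.9 over all genes.

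The gene with the most members was ppfr-1, with 8 in introns 6 and 7, spread over 4953 bp, at signals from 88.7 to 577.6. Next was let-526, with 6 members in introns 1, 4 and 7 (signals 95.3 to 195.2); it encodes an ARID-domain subunit of the SWI/SNF chromatin remodelling complex. The list of each replicate held 5 distal intronic peaks in let-526, and those of replicates 1 and 2 held 8 and 5 in ppfr-1. Among the genes with 5 members, zfp-1, which encodes a chromatin protein related to mammalian AF10, had 3 in the thresholded set (signals 151.4, 151.2 and 143.8). The strongest zfp-1 peak lay 10448 bp from the 5′ end in intron 9, at rank 1438 in replicate 1 and rank 216 in replicate 2. In lin-42, the worm relative of the circadian gene period and a regulator of larval timing, the members with signals of 199.2 and 195.1 lay 5330 and 14219 bp from the 5′ end, and the other 3 had signals from 86.2 to 108.9. The kinase gene mnk-1 had 1 thresholded member (155.1), and ncl-1, a regulator of nucleolus size, had none (97.3 to 132.9). The gene hlh-30, which encodes the worm relative of the lysosomal regulator TFEB, also held 5, all below the thresholded set (98.7 to 117.0). Members of a gene were not always separate sites, since the nearest summits were 199 bp apart in both ppfr-1 and let-526 and 48 of all 830 members had another within 430 bp. A count of 4 could rest on 1 library: dapk-1 and kin-1 each held 4 members in the pooled list and 4 in that of replicate 1, but 0 in that of replicate 2.

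**Figure D3:**
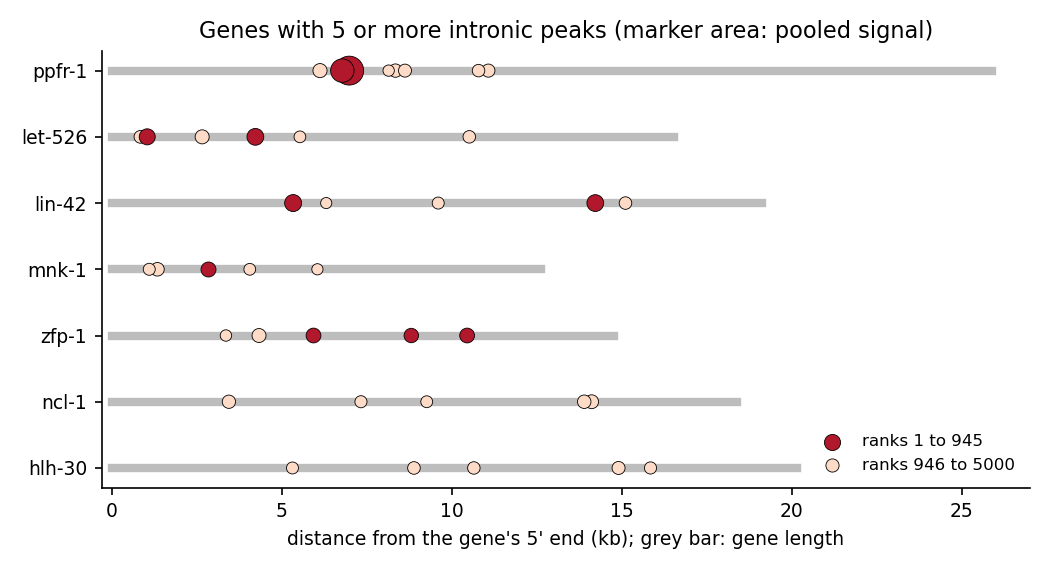
Position of each distal intronic peak along the 7 genes that hold 5 or more, in kb from the gene's 5′ end, with marker area in proportion to pooled signal and the gene's length as a grey bar. The 8 peaks of ppfr-1 stand within 4953 bp and the 5 of mnk-1 within 4947 bp. Those of lin-42, ncl-1 and hlh-30 are spread over 9777, 10671 and 10533 bp.

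Peak density per length of intron was highest in the lists of transcription factors other than homeobox proteins and of chromatin regulators, in the pooled list and in each replicate by itself. These are densities in lists chosen by function, with earlier results of these data known, so they are description only. They are given beside the density over all genes (32.9 members per Mb of eligible sequence) without a test. The list of other transcription factors and regulators of development held 53 members in 26 of its 81 eligible genes, or 131.7 per Mb, and the list of each replicate by itself gave 84.5 and 104.4 per Mb, beside 33.2 and 33.3 per Mb for all genes. Its 4 hosts of highest signal were lin-42 (199.2), jun-1 (161.1), which encodes an AP-1 subunit, zip-4 (139.7), a bZIP gene, and fkh-7 (126.8), a forkhead gene. Further down, the FOXO gene daf-16 held 4 members, of up to 124.8, and hif-1, the hypoxia-inducible factor, and skn-1, the Nrf-type stress regulator, held 3 each, of up to 113.4 and 117.1. None of these members was in the thresholded set, and these genes were named after their values were seen. The highest daf-16 member ranked 1213 in replicate 1 and 16516 in replicate 2. In skn-1 the nearest summits were 203 bp apart. Of the 53, 4 were in the thresholded set (9.94 per Mb, beside 3.45 per Mb for all genes).

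Chromatin and transcription regulators held 20 members in 8 of 71 eligible genes, or 78.7 per Mb (59.0 and 62.98 per Mb in replicates 1 and 2), and 7 of the 20 were in the thresholded set. The members lay unevenly: 6 of the 20 were in let-526 and 5 in zfp-1, and the others included pbrm-1, a further SWI/SNF subunit gene (highest signal 211.2), and nurf-1, for a nucleosome remodelling factor (126.0). Signalling genes held 45.5 per Mb in the pooled list and in each replicate, in 13 of 71 genes, led by gsa-1, for the Gs alpha protein (167.2), dlk-1, for a kinase of axon regeneration (139.7), unc-33 (103.7) and egl-10 (102.8). Muscle structure genes held 41.9 per Mb (47.1 and 52.4 per Mb in replicates 1 and 2), with 1 member in each of 8 of 31 genes and 0 in the thresholded set. Their highest members were in the actin gene act-3 (111.9), mup-4 (100.5), the dystrophin gene dys-1 (99.8) and zyx-1 (98.4).

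Genes of neuronal wiring and excitability, and homeobox genes, held fewer peaks per Mb than all genes in the pooled list, on small counts that differed between the replicates. Axon guidance and cell adhesion genes held 9 members, or 20.4 per Mb, in 7 of 45 genes (33.99 per Mb in replicate 1 and 11.3 in replicate 2), and 1 of the 9 was in the thresholded set. These genes have long introns, with a median of 6970 bp of eligible sequence against 692 bp over all genes, and counted by gene 15.6% of them held a member, against 4.36% of all eligible genes. Further hosts included zig-8 (105.8), the cadherin gene hmr-1 (95.6) and lad-2 (94.6). Synaptic and pan-neuronal genes held 14.98 per Mb in 3 of 32 genes, or 9.38% (24.96 and 34.94 per Mb in the replicates), namely unc-104, the gene of a kinesin that carries synaptic vesicle precursors (215.9, ranks 379 and 348 in the replicates), unc-33 (103.7) and tom-1 (92.0). Ion channel and neurotransmitter receptor genes held 6.25 per Mb in 2 of 56 genes, slo-1 (84.9) and gon-2 (84.4), and homeobox genes 6.55 per Mb in 1 of 55, unc-62 (86.5). In the replicates the channel list gave 12.5 and 15.6 per Mb and the homeobox list 19.7 and 13.1 per Mb. All of these replicate densities except that of axon guidance genes in replicate 1 and of synaptic genes in replicate 2 lay below the density over all genes.

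**Figure D4:**
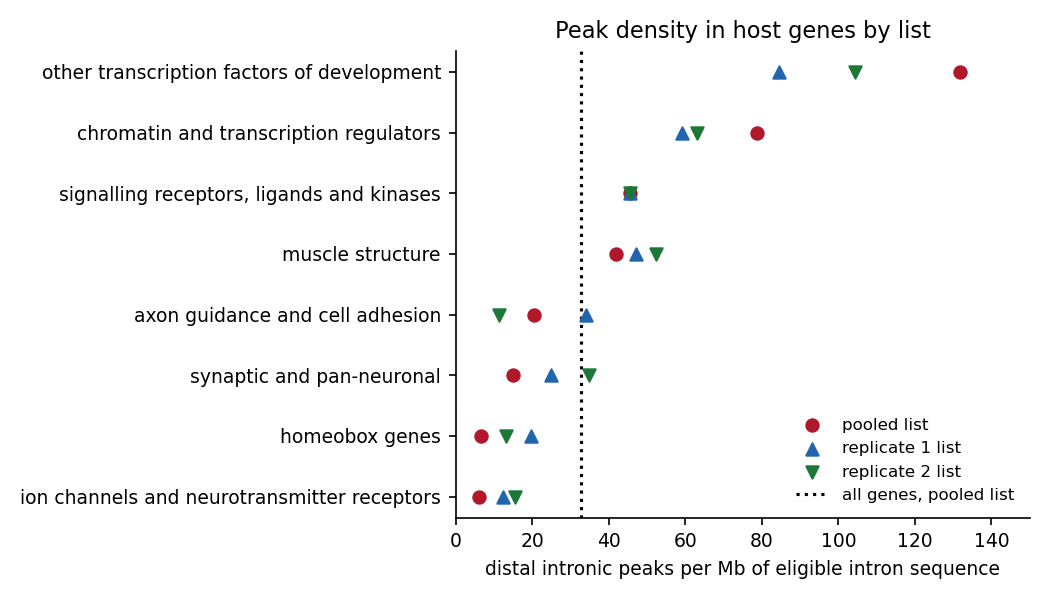
Density of distal intronic peaks (per Mb of eligible intron sequence, x) in the host genes of 8 lists (y), for the pooled list (circles) and the list of each replicate by itself (triangles), with the pooled density over all genes as a dotted line at 32.9. The transcription factor list (131.7, with 84.5 and 104.4) and the chromatin list (78.7, with 59.0 and 62.98) lie to the right of the line in all 3 lists. Gene lists were chosen with earlier results of these data known.

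The summits were richer in G and C than the sequence around them. The median GC content of the summit windows was 44.6% (interquartile range 37.6 to 50.5%), against 38.6% in windows centred 300 bp to each side and 32.03% in the eligible intron sequence as a whole. Of the flank windows, 68.7% were centred in distal intron sequence, 23.4% in exons and 7.29% in promoter windows, and those in intron sequence had a median of 36.6%. In 567 of the 830 members the summit window was above the mean of its own flanks. The same held for 487 of 639 distal intergenic peaks, 899 of 1160 promoter peaks and 1162 of 2261 intron candidates of ranks past 20000. Members of the thresholded set had a median of 50.5% and those below it had 43.6%, and intron candidates of ranks past 20000 had 38.6%. The members had the same median as distal intergenic peaks (44.6%; difference 0 percentage points, adjusted p = 1) and a lower one than promoter peaks (45.5%; difference −0.990 percentage points, adjusted p = 0.787, both two-sided permutation tests of medians with 100000 resamples).

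**Figure D5:**
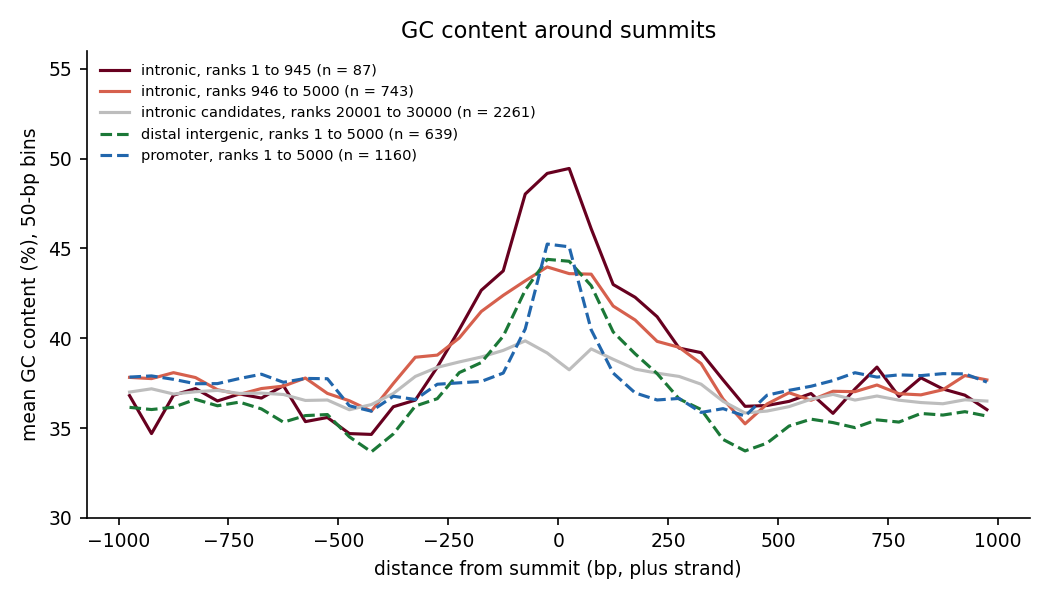
Mean GC content (%) in bins of 50 bp, by distance from the summit in bp, for distal intronic members (solid red lines), lower intron candidates (grey) and distal intergenic and promoter peaks (dashed). Members of the thresholded set (dark red) reach 49.3% at the summit and 36.4% in the outermost bins, those below it reach 43.8% and 37.7%, and candidates of ranks past 20000 have 38.7% and 36.8%.

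The word GAGACGCA was more frequent at the summits than beside them. It was one of 3 words of 8 bases that had been seen earlier in the thresholded peaks of all classes, so the test used the members below that set, which had no part in that choice. Of those 743 members, 29 (3.90%, 2.63 to 5.56%) held it in the summit window on either strand, against 16 of 1486 flank windows (1.08%), a 3.63-fold difference (adjusted p = 6.8e-05, exact two-sided Cochran-Mantel-Haenszel test with each peak as its own stratum, Benjamini-Hochberg over 3 words). In the same exact test the adjusted p was 0.00129 with only the flanks in intron sequence and 0.167 with windows of 51 bp. Over all 830 members 36 windows held it (4.34%), in 35 genes; of windows tiled over the eligible sequence, 0.580% held it. The holders of highest signal were the members in epg-9 (239.6), F57A8.1 (179.9), Y43F8B.2 (176.7) and jun-1 (161.1), whose windows are printed above. Below the thresholded set, 3.90% of members and 4.93% of distal intergenic peaks held the word (difference −1.02 percentage points, adjusted p = 0.816, two-sided Fisher exact test, 6 comparisons). Over all ranks, which include the peaks in which the word was first seen, the shares were 4.34% and 5.95%.

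The other pair of words gave weaker results. AGAGAGAG was in 21 of the 743 summit windows (2.83%) and 23 flank windows (1.55%; adjusted p = 0.0485, same exact test), and in 27 of all 830 members (3.25%), led by K11D2.4 (218.4), lin-42 (195.1), daf-5 (188.0) and Y111B2A.12 (184.6). With flanks in intron sequence the exact test gave an adjusted p of 0.131. Below the thresholded set the repeat was less frequent in the members than in distal intergenic peaks, 2.83% against 6.02% (adjusted p = 0.0419, Fisher exact test). Over all ranks the shares were 3.25% and 7.36%. GCGCCAGC was rare, in 4 of the 743 members and 1 flank window (exact test, adjusted p = 0.0485, and 0.556 with flanks in intron sequence); the 4 were in T28B11.1 (135.3), F13A7.1 (121.9), ulp-4 (99.9) and try-11 (97.8). Below the thresholded set 0.538% of members and 1.19% of promoter peaks held it (Fisher exact test, adjusted p = 0.566). Over all ranks the shares were 0.482% and 3.71%, a comparison that includes the peaks from which the word came and is given as description; in the thresholded set 0 of 87 members held the word (upper bound of the exact 95% interval 4.15%). Of all 830 members, 765 held none of the 3 words in the summit window.

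Among all 6-base words, each counted with its reverse complement, 173 of 2079 tested (8.32%) differed between the summit and flank windows of the 830 members at an adjusted p under 0.05 in the exact Cochran-Mantel-Haenszel test. Of these, 109 (5.24%) were more frequent at the summits and 64 (3.08%) less frequent. With flanks in intron sequence alone 176 words (8.47%) differed, 92 (4.43%) more and 84 (4.04%) less frequent, and 63 and 51 of these were shared with the first set. The leading word was GAGAGA, in 138 summit windows (16.6%) and 128 of 1660 flank windows (7.71%; adjusted p = 3.8e-08, exact test). It lies within AGAGAGAG, and the 830 members include thresholded peaks, in which the 8-base words were first seen. Its 6 holders of highest signal were the members in ints-8 (600.6), ppfr-1 (577.6), mdt-26 (433.7), gei-4 (301.0), T28F4.1 (294.4) and epg-9 (239.6), all of them among the 12 highest members. In the same exact test it was followed by GACGCA (7.83% of summit and 2.41% of flank windows, adjusted p = 2.1e-06) and ACGCAG (7.11% and 2.05%, adjusted p = 2.4e-06), of which the first lies within GAGACGCA, and by GCGCAC (4.94% and 1.205%, adjusted p = 1.9e-05) and ACACAC (83 summit and 73 flank windows, adjusted p = 3.3e-05). The words that were less frequent at the summits were led in the exact test by AAATAT (9.52% and 17.6%, adjusted p = 1.9e-05) and TTAAAA (12.4% and 20.5%, adjusted p = 6.6e-05). With only the members below the thresholded set, the exact test gave an adjusted p of 0.000367 for both GAGAGA (14.4% of summit windows) and GACGCA (6.86%).

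The direction went with base composition. Of the 109 words that were more frequent at summits, 88 had 4 or more G or C bases, and of the 64 less frequent words 62 had 2 or fewer. The median fold of summit over flank share was higher the more G and C a word held, with 0.663 for words of A and T only, 1.03 for words with 3 G or C bases and 2.13 for words of G and C only. GAGAGA and ACACAC, with 3 such bases each, stood at 2.16-fold and 2.27-fold. Both were named for their low p in these same windows, so a fold above the median of their composition follows from that choice. The part of GC content in the word shares was not tested.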

How the data were processed

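The authors deposited narrowPeak interval lists for replicate 1, replicate 2 and the pool of both (30000 candidates each, with background intervals) and 1 thresholded list, on ce11 per the labels. The deposited signal (column 7, taken as ChIP against control), the deposited −log10 q-value and the deposited summit offset were used as given; the score, p-value and other columns were not. The thresholded list came from an IDR procedure on the candidate lists, per the deposited files' names. Aligner, peak caller, IDR cutoff and signal scaling: not given in the sources used here. Signals of the replicates are therefore shown side by side as each list's own values, and only ranks are read across lists. Members were found with the Ensembl release 115 annotation of WBcel235, the same assembly, and matched to replicate candidates by an overlap of at least 1 bp and the nearest summit. The members and gene lists were chosen with earlier results of these data known. Words were searched on both strands in windows of 50 bp to each side of the summit, with flanks of the same size centred 300 bp away, in Python 3.11.15 with scipy 1.17.1; 6-base words needed 10 windows. The word test was checked on simulated windows in which summits and flanks had the same base composition. That check does not cover the GC difference between summits and flanks in the data. Peaks are not replicates of worms: p-values and intervals describe these lists and cover counting error only. Genes were named by rule: the 12 highest members, hosts with most members, the highest holders of each word and the 4 highest hosts of each list, of which 1 is not reported here. Comparisons of words between peak classes over all ranks include peaks from which the words came. The main results therefore test only the members below the thresholded set, and p-values over all ranks in the last section carry that limit. The notes on hif-1, skn-1, daf-16, hlh-30, dapk-1 and kin-1 were chosen after their values were seen. Alternatives covered the rank limit, annotation rules, windows, flanks and each replicate alone.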

Additional observations from a re-analysis of the deposited data

How the results depend on the processing

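No paired analysis was possible because the series has 1 group. With the rule applied to 1 replicate at a time, the number of members was 837 to 840, the share in first introns 28.7 to 29.99% and the share near an internal start 17.3 to 18.8%. With the rank limit at the end of the thresholded set, and at 10000, there were 87 and 1822 members, of which 98.9% and 17.1% were found in both replicates and 27.6% and 16.4% lay near an internal start; 37.9% of the 87 were in first introns. That share near an internal start is 0 by construction when promoter windows stand at every transcript start. The share found in both replicates was 20.7% with summits within 100 bp, 6.63% with as many of each replicate's highest candidates as the thresholded set holds and 95.1% with all 30000. For GAGACGCA the summit share exceeded that of the flanks by 2.83 percentage points, and by 0.740 with windows of 51 bp (exact test, adjusted p = 0.167). Leaving out 1 replicate gave 1.70 to 1.81, and the other alternatives for this word stayed past the threshold. Sets without 1 replicate were cut by rank in the remaining list, so they can hold thresholded peaks, as does the set of all members. For each word these settings are thus not free of the peaks in which the words were first seen. For GCGCCAGC no alternative passed. The differences were 0.606 (windows of 100 bp to each side), 0.269 (51 bp), 0.404 (flanks at 500 bp), 0.471 (flanks at 1000 bp), 0.579 (1 member per gene, and also all transcript starts), 0.440 (intron flanks), 0.361 (all members) and 0.0669 to 0.204 without 1 replicate. For AGAGAGAG those that missed were 0.538 (51 bp), 1.21 (flanks at 1000 bp), 0.745 (1 member per gene), 0.661 (all transcript starts) and 0.850 (intron flanks, an alternative chosen after seeing the data); without 1 replicate it was 1.27 to 1.29. Comparisons with other classes over all ranks include peaks in which the words were first seen. Against distal intergenic peaks, the GAGACGCA difference of −1.61 points was −1.02 below the thresholded set (Fisher exact test, adjusted p = 0.816). Over all ranks it was −2.35 with windows of 51 bp (Fisher exact test, adjusted p = 0.0144). Without 1 replicate, also over all ranks, it was −2.79 to −2.06 (Fisher exact test, adjusted p = 0.0362 without replicate 1). These all-rank p-values come from sets that include the peaks in which the word was first seen, so no conclusion is drawn from them. Against promoter peaks, the GCGCCAGC difference of −3.22 points was −0.655 below the thresholded set and −3.63 to −2.62 without 1 replicate. The median GC difference from distal intergenic peaks passed no test. The number of 6-base words called was 380 (windows of 100 bp to each side), 32 (51 bp), 393 and 283 (flanks at 500 and 1000 bp), 90 (all transcript starts), 89 (members below the thresholded set) and 79 to 102 without 1 replicate. The cause of these changes was not tested. Depth is unknown, so a low interval cannot be told apart from background here.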
